A study of Homo sapiens with 6 samples.

Results

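The Notch genes described here were 10 of the 18678 genes in the deposited expression table, taken by symbol. They are the ligands JAG1, JAG2 and DLL1, the glycosyltransferase LFNG, the receptors NOTCH1, NOTCH2 and NOTCH3, and the response genes HES1, HEY1 and NRARP. They were measured by stranded mRNA sequencing in Cal27-shGRK2 and in Cal27 cells. Cal27 is an established line of human tongue squamous carcinoma, and Cal27-shGRK2 is named for a short hairpin RNA against GRK2, a kinase of activated G protein-coupled receptors. Both were grown in serum-containing medium and collected before confluence. The labels give neither the hairpin sequence, the number of clones, nor any control vector in Cal27. Going by the study's title, the comparison asks how GRK2 bears on the epithelial state of head and neck tumour cells.

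Notch signalling passes between touching cells. A JAG or DLL ligand on one cell pulls on a NOTCH receptor of its neighbour, ADAM10 and then gamma-secretase cut the receptor, and the freed intracellular part joins the DNA-binding protein RBPJ and a MAML coactivator to switch on genes of the HES and HEY families and NRARP. Fringe enzymes such as LFNG lengthen sugars on the receptor and shift its response between DLL and JAG ligands. In stratified squamous epithelium Notch is known for promoting differentiation, and NOTCH1 is a known tumour suppressor gene of head and neck carcinoma.

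The values were FPKM, fragment counts scaled to transcript length and library size, which can be compared between genes. The labels name 3 libraries per group, but in Cal27-shGRK2 the values of replicate 0 equalled those of replicate 1 in all 18678 genes. These columns did not differ at all, whereas other pairs of libraries shared 55 to 94 identical values, and they were treated as 1 sample. This left 2 Cal27-shGRK2 and 3 Cal27 libraries, whose FPKM summed to between 590163 and 644831 per library. Read depth is unknown, so no counting interval can be given. The labels do not mention separate cultures, and the p-values therefore reflect the spread between these samples alone, which may be technical. GRK2 (listed as ADRBK1) had 17.3 and 16.6 FPKM in Cal27-shGRK2, against 55.3, 59.4 and 55.8 FPKM in Cal27, and fell by 1.69 ± 0.06 on the log2(FPKM + 1) scale (SE, limma adjusted p = 3.8e-11). Of 7 squamous and epithelial markers, 5 were lower and 2 higher in Cal27-shGRK2 (limma adjusted p under 0.05), where 29.6% of all genes tested passed, 14.6% lower and 15.0% higher. The lower ones were KRT5, KRT14, KRT17, TP63 and DSG3. KRT14, a basal keratin, had 0.235 and 0.160 FPKM in Cal27-shGRK2, against 19.3, 20.9 and 16.5 FPKM in Cal27. KRT14 and DSG3 passed the filter of a mean of at least 1 FPKM only through Cal27. The general epithelial markers CDH1 and EPCAM were higher. CDH1 had 105.5 and 99.2 FPKM in Cal27-shGRK2, against 66.8 to 72.2 FPKM in Cal27 (log2 fold change 0.57), and EPCAM had 193.4 and 187.9 FPKM in Cal27-shGRK2, against 129.6 to 148.6 FPKM in Cal27 (log2 fold change 0.45). The summed FPKM of the 7 was 1102 and 1127 in Cal27-shGRK2 and 2754 to 3058 in Cal27, of which KRT5 made up most, with 739.6 and 773.3 FPKM in Cal27-shGRK2 and 2073 to 2322 FPKM in Cal27. Whether these marker changes play a part in the Notch values was not tested. In bulk RNA, fewer cells of a type and less RNA per cell cannot be told apart.

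Promoter windows from RefSeq (GRCh38.p14, 250 bases before to 50 after the start site) were found for 8 of the 10 genes, in 9 windows because LFNG has a pair of start sites. Those of HES1, NRARP, JAG2 and JAG1 are shown because they set a response gene that did not pass the test beside a response gene and both Jagged ligands that fell. Both strands were searched. Capitals mark matches to TGGGAA, the core recognised by RBPJ, whose reverse complement reads TTCCCA. They also mark matches to CACGNG, a site form of HES and HEY proteins, whose reverse complement reads CNCGTG. The HES1 window lies at chr3:194135898-194136197 on the plus strand, NRARP at chr9:137302222-137302521, JAG2 at chr14:105168727-105169026 and JAG1 at chr20:10673950-10674249, these 3 on the minus strand.
HES1: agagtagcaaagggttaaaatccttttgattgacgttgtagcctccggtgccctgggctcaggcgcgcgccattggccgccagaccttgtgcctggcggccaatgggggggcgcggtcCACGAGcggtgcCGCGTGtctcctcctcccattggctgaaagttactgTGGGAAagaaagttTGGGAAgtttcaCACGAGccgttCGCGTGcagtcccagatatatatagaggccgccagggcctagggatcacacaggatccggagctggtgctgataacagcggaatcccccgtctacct
NRARP: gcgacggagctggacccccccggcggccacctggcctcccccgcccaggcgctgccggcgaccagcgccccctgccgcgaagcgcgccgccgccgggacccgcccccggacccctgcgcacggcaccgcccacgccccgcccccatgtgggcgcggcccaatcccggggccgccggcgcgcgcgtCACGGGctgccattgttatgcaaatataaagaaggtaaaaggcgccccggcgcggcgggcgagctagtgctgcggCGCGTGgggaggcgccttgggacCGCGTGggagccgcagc
JAG2: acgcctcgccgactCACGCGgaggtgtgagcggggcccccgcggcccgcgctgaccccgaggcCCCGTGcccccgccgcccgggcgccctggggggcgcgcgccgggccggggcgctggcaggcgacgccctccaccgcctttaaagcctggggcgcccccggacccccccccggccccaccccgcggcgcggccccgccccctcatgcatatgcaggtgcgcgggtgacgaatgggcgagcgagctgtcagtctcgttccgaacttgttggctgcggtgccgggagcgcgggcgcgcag
JAG1: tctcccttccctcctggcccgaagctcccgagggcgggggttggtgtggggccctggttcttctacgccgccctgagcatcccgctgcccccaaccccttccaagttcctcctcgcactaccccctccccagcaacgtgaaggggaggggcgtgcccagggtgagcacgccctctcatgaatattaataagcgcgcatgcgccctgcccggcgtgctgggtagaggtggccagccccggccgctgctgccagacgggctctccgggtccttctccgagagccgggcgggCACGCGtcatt

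In the HES1 window the RBPJ core occurred 2 times on the gene's strand, its first bases at -84 and -70 from the start site. The first of these was also a match to the longer GTGGGAA. The HES and HEY form occurred 4 times there, at -132, -120, -58 and -47, with no overlap with the RBPJ core. The NRARP, JAG2 and JAG1 windows held no TGGGAA, and 3, 2 and 1 matches to CACGNG. Each LFNG window held 1 TGGGAA, and the NOTCH1, NOTCH2 and NOTCH3 windows held none. CACGNG also occurred in windows of genes that rose, with 2 matches in the LFNG window at chr7:2517613-2517912 and 1 in that of NOTCH2. The NOTCH3 window held 1 as well, and the other LFNG window and that of NOTCH1 held 0. Of 35116 RefSeq windows of the same length, 24.0% held at least 1 TGGGAA, 3.80% held at least 2, 6.25% held GTGGGAA and 30.5% held CACGNG. A match describes letters only, and a window with none says nothing about binding elsewhere.

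All 3 ligands were lower in Cal27-shGRK2. JAG2, a Jagged ligand (ENSG00000184916.8, chromosome 14 from 105140981 to 105168824 on the minus strand, GENCODE version 29, hg38), had 4.35 and 4.76 FPKM in Cal27-shGRK2, against 16.9, 17.4 and 15.3 FPKM in Cal27. JAG1, the other Jagged ligand (ENSG00000101384.11, chromosome 20 from 10637684 to 10673999, minus strand), had 8.64 and 9.20 FPKM in Cal27-shGRK2, against 23.3, 25.8 and 24.7 FPKM in Cal27. Every Cal27-shGRK2 library was below every Cal27 library for both, by more than the whole range within a group. DLL1, a Delta ligand (ENSG00000198719.8, chromosome 6 from 170282206 to 170306565, minus strand), had 3.87 and 4.07 FPKM in Cal27-shGRK2, against 6.99, 7.46 and 6.99 FPKM in Cal27. Its groups did not overlap either.

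**Figure D1:**
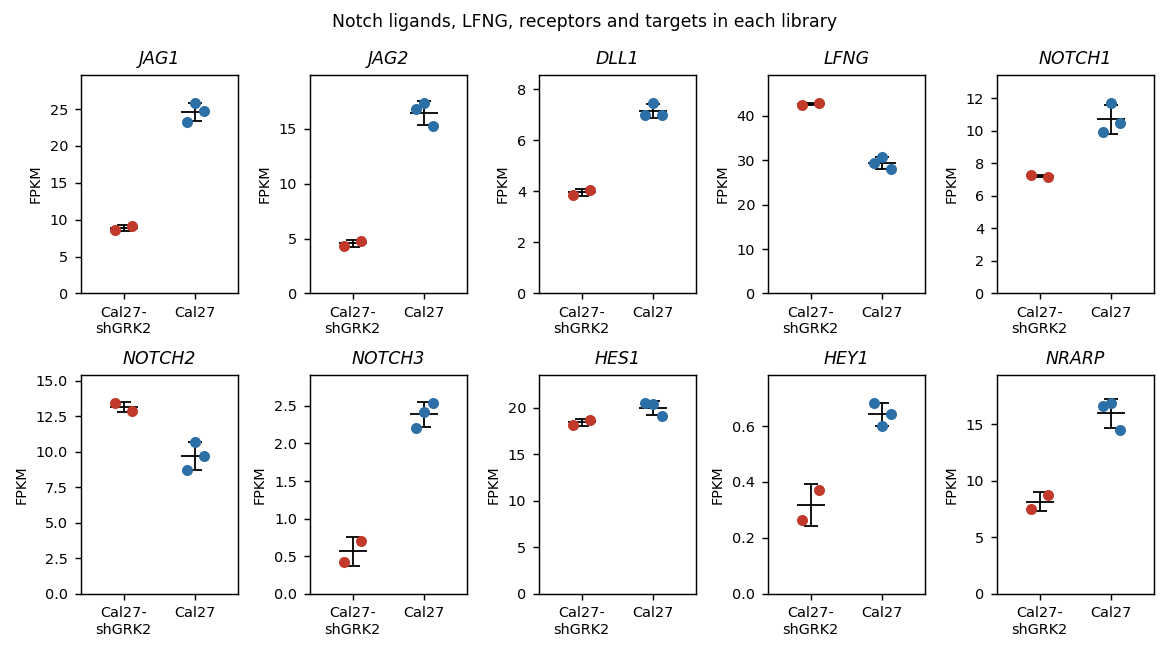
FPKM of each of the 10 genes in the 2 distinct Cal27-shGRK2 libraries (left of each panel) and the 3 Cal27 libraries (right), with the mean and SD as bars and each axis starting at 0. The groups did not overlap in any panel, and those of HES1 nearly touch. Among all genes tested, which leave out HEY1, 53.3% had no overlap. Only LFNG and NOTCH2 were higher in Cal27-shGRK2, with LFNG at 42.5 and 42.9 FPKM there.

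The mean of JAG2 was 3.62-fold lower in Cal27-shGRK2 (4.55 ± 0.291 FPKM, SD, n = 2) than in Cal27 (16.5 ± 1.09 FPKM, SD, n = 3). On the log2(FPKM + 1) scale, which understates changes of low genes, it fell by 1.66 ± 0.08 (SE, limma adjusted p = 6.5e-10, Benjamini-Hochberg over all genes). JAG1 was 2.76-fold lower (8.92 ± 0.392 against 24.6 ± 1.29 FPKM) and fell by 1.37 ± 0.07 (limma adjusted p = 1.6e-09). DLL1 was 1.80-fold lower and fell by 0.71 ± 0.08 (limma adjusted p = 8e-06). Among 13377 genes tested, JAG2 ranked 75th and JAG1 112th from the lowest fold change. JAG2, JAG1 and the receptor NOTCH3 were the members with a log2 fold change of -1 or lower, a level reached with an adjusted p under 0.05 by 1.31% of all genes tested. No member had a log2 fold change of 1 or higher, which 1.20% of all genes had by the same test.

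Ligand RNA as a whole was lower and its makeup differed between the groups. Summed over the 3 ligands, FPKM was 16.9 and 18.0 in Cal27-shGRK2, against 47.1, 50.7 and 47.0 in Cal27. JAG1 made up about the same share of this sum in both groups, at 51.3% and 51.0% in Cal27-shGRK2 and 49.4% to 52.6% in Cal27. JAG2 made up 25.8% and 26.4% in Cal27-shGRK2, against 32.5% to 35.8% in Cal27, and DLL1 made up 23.0% and 22.6% in Cal27-shGRK2, against 14.7% to 14.9% in Cal27. A ratio within a library does not move with that library's scaling. The log2 ratio of JAG1 plus JAG2 over DLL1 was 1.75 and 1.78 in Cal27-shGRK2 and 2.52, 2.53 and 2.52 in Cal27, a difference of -0.76. The log2 ratio of JAG2 over JAG1 was -0.99 and -0.95 in Cal27-shGRK2 and -0.46, -0.57 and -0.70 in Cal27, a difference of -0.39. Both ratios were lower in every Cal27-shGRK2 library, and each gave p = 0.1 in the exact two-sided permutation test, the smallest it can give with 2 libraries against 3. The same p was reached by all 4 ratios computed, and was 0.1 after Benjamini-Hochberg adjustment over them.

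**Figure D2:**
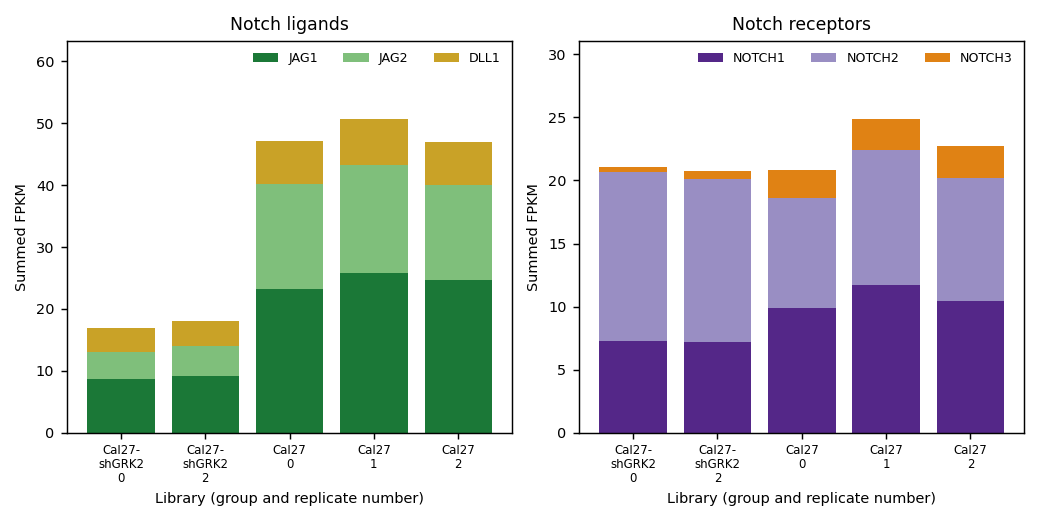
Stacked FPKM of the 3 ligands (left panel) and the 3 receptors (right panel) in each library, Cal27-shGRK2 left of Cal27, numbered by replicate. The ligand bars of Cal27-shGRK2 reach 16.9 and 18.0 against at least 47.0 in Cal27, whereas the receptor bars of both groups reach similar heights with a larger NOTCH2 part in Cal27-shGRK2.

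Among the receptors NOTCH3 and NOTCH1 fell and NOTCH2 rose. NOTCH3 (ENSG00000074181.8, chromosome 19 from 15159038 to 15200981, minus strand) had 0.428 and 0.700 FPKM in Cal27-shGRK2, against 2.203, 2.43 and 2.53 FPKM in Cal27. It reached 1 FPKM only in Cal27, so it passed the filter through the group in which it was high. Its mean was 4.23-fold lower in Cal27-shGRK2, the largest fold among the 10 genes, although its log2 fold change of -1.12 ± 0.11 (SE, limma adjusted p = 1.8e-06) was smaller than those of JAG2 and JAG1 because of the pseudocount of 1. With a pseudocount of 0.1 the log2 fold change of NOTCH3 was -1.93.

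NOTCH1 (ENSG00000148400.9, chromosome 9 from 136494433 to 136545786, minus strand) had 7.26 and 7.18 FPKM in Cal27-shGRK2, against 9.91, 11.7 and 10.5 FPKM in Cal27. It fell by 0.51 ± 0.08 (SE, limma adjusted p = 0.00023), a 1.48-fold lower mean. NOTCH2 (ENSG00000134250.17, chromosome 1 from 119911553 to 120069626, minus strand) had 13.4 and 12.9 FPKM in Cal27-shGRK2, against 8.73, 10.7 and 9.70 FPKM in Cal27. It rose by 0.41 ± 0.08 (SE, limma adjusted p = 0.0018), a 1.35-fold higher mean, and came closest to the threshold when the shared Cal27-shGRK2 library (replicates 0 and 1) was left out (adjusted p = 0.039). Partial copies of NOTCH2 can share its reads. The copy in the table, NOTCH2NL, had 2.01 and 2.98 FPKM in Cal27-shGRK2 and 1.56 to 2.11 FPKM in Cal27, groups that overlap (log2 fold change 0.33, limma adjusted p = 0.076).

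Receptor RNA summed to similar amounts while its makeup differed. The summed FPKM of NOTCH1, NOTCH2 and NOTCH3 was 21.1 and 20.8 in Cal27-shGRK2 and 20.8, 24.9 and 22.7 in Cal27, which overlap. NOTCH2 made up 63.6% and 62.1% of it in Cal27-shGRK2, against 41.9%, 43.1% and 42.7% in Cal27, a difference of 20.3 percentage points (exact permutation p = 0.1, the smallest possible). NOTCH1 made up 34.4% and 34.5% in Cal27-shGRK2 and 46.1% to 47.6% in Cal27, and NOTCH3 2.03% and 3.37% in Cal27-shGRK2 and 9.76% to 11.2% in Cal27. The log2 ratio of NOTCH2 over NOTCH3 was 4.97 and 4.20 in Cal27-shGRK2, against 1.99, 2.14 and 1.94 in Cal27, a difference of 2.56 (exact permutation p = 0.1). With 1 FPKM added to each term the difference was 1.52. NOTCH3, the denominator, was under 1 FPKM in both Cal27-shGRK2 libraries.

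LFNG, the fringe enzyme that extends O-fucose on Notch receptors (ENSG00000106003.12, chromosome 7 from 2512529 to 2529177, plus strand), was the highest of the 10 genes in both groups. It had 42.5 and 42.9 FPKM in Cal27-shGRK2, against 29.3, 30.8 and 28.0 FPKM in Cal27. The groups were separated by more than the range of either, and LFNG rose by 0.53 ± 0.06 (SE, limma adjusted p = 1.6e-05), a 1.45-fold higher mean. The other fringe genes, RFNG and MFNG, had log2 fold changes of 0.17 and -0.19 that did not pass (limma adjusted p = 0.13 and 0.24).

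The response genes differed among themselves. NRARP, a small ankyrin-repeat protein that is induced by Notch and limits it (ENSG00000198435.3, chromosome 9 from 137300482 to 137302251, minus strand), had 7.54 and 8.74 FPKM in Cal27-shGRK2, against 16.6, 16.9 and 14.5 FPKM in Cal27. It fell by 0.90 ± 0.09 (SE, limma adjusted p = 1.1e-06), a 1.97-fold lower mean. HES1, a transcriptional repressor and widely used Notch readout (ENSG00000114315.3, chromosome 3 from 194136145 to 194138732, plus strand), had 18.2 and 18.7 FPKM in Cal27-shGRK2, against 20.5, 20.4 and 19.1 FPKM in Cal27. The ranges of HES1 nearly touch, and its log2 fold change of -0.11 ± 0.07 (SE) did not pass (limma adjusted p = 0.25). The 95% interval of that difference ran from -0.25 to 0.03, so a fall as large as that of NRARP lay outside it.

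HEY1, a repressor related to HES1 (ENSG00000164683.16, chromosome 8 from 79764010 to 79767863, minus strand), was the lowest of the 10 genes and lay under the filter. It had 0.263 and 0.371 FPKM in Cal27-shGRK2, against 0.681, 0.600 and 0.644 FPKM in Cal27. The groups did not overlap, with a 2.02-fold lower mean in Cal27-shGRK2. With no filter beyond a value above 0, its log2 fold change was -0.32 ± 0.09 (SE, limma adjusted p = 0.030), where 21.9% of 18678 genes passed and 10.5% were lower.

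Of the 9 genes tested, 6 were lower and 2 higher in Cal27-shGRK2 and HES1 did not pass, against 29.6% of the 13377 genes tested that passed in either direction (14.6% lower and 15.0% higher). When the FPKM of every library were brought to the same sum, 1512 of all genes were lower and 2850 higher, against 1949 lower and 2008 higher as deposited, and the 9 genes kept the calls above. The median log2 fold change of the 9 was -0.71, beside -0.01 over all genes tested. The genes were chosen with earlier results of these data known, and NOTCH3 passed the filter only through Cal27. The comparison with all genes is therefore a description only. The 9 tested genes, and HEY1 under the filter, had no overlap between the groups, which was the case for 53.3% of all genes tested. Within a group the spread was small for most of them. The SD in Cal27 was 3.86% to 10.2% of the mean, and in Cal27-shGRK2 it was under this range for NOTCH1, LFNG, HES1, NOTCH2 and DLL1 and reached 24.1% for HEY1 and 34.1% for NOTCH3, the lowest genes.

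**Figure D3:**
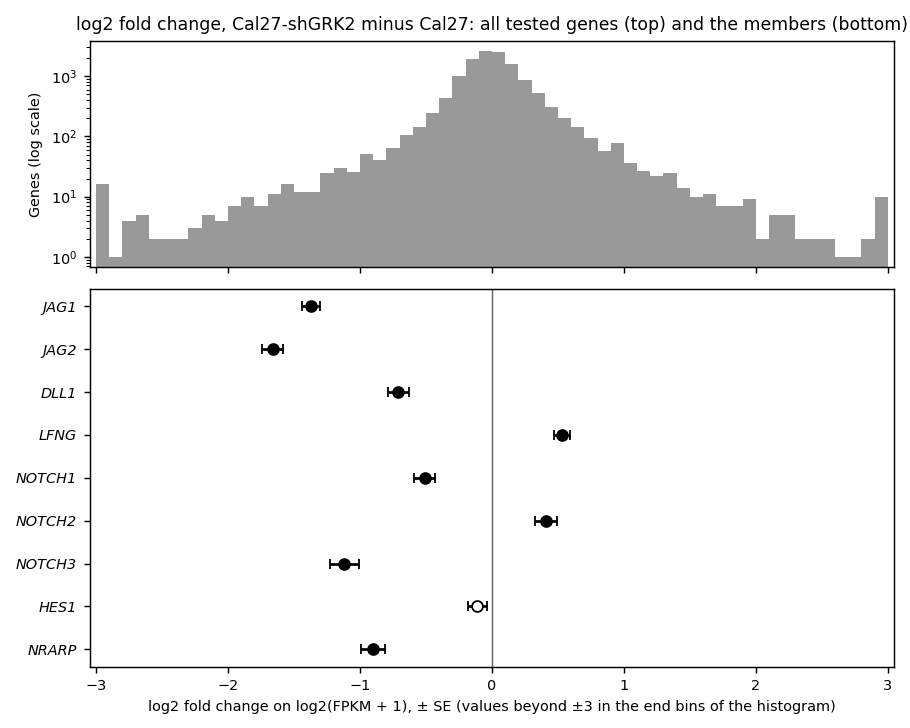
Top, histogram of log2 fold changes (Cal27-shGRK2 minus Cal27) of the 13377 genes tested, with gene numbers on a log axis. Bottom, the 9 tested Notch genes on the same horizontal axis with SE bars, filled where the adjusted p was under 0.05, with JAG2 at -1.66 lowest, LFNG at 0.53 highest and HES1 unfilled.

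Levels per length set the genes in a different order in the groups. In Cal27-shGRK2 the mean FPKM ran from LFNG (42.7) through HES1 (18.4), NOTCH2 (13.2), JAG1 (8.92), NRARP (8.14), NOTCH1 (7.22), JAG2 (4.55), DLL1 (3.97) and NOTCH3 (0.564) to HEY1 (0.317). The neighbours JAG1 and NRARP overlapped there and the others did not. In Cal27 the order was LFNG (29.4), JAG1 (24.6), HES1 (20.0), JAG2 (16.5), NRARP (16.01), NOTCH1 (10.7), NOTCH2 (9.72), DLL1 (7.15), NOTCH3 (2.39) and HEY1 (0.642). The neighbours JAG2 and NRARP overlapped in Cal27, as did NOTCH1 and NOTCH2. NOTCH2 thus stood above NOTCH1 and both Jagged ligands in Cal27-shGRK2, and below both Jagged ligands in Cal27.

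The authors' deposited table marks 9 of the 10 genes as significant, where 15.4% of all 18678 genes are so marked, and leaves out HES1 (log2 fold change -0.10, q = 0.68). In the authors' deposited table the log2 fold changes without a pseudocount were -2.00 for JAG2, -1.45 for JAG1 and -1.12 for HEY1 (q = 0.0012), and NOTCH3 averaged 0.519 FPKM in Cal27-shGRK2 and 2.39 FPKM in Cal27. The authors' value per condition equals the mean of the 3 columns in Cal27 but not in Cal27-shGRK2, where it was within a relative 1e-04 of that mean in 0.389% of genes. If it is taken as the mean of 3 libraries there too, a further library can be computed, but this assumption gave impossible values below 0 for 74 genes, which were set to 0. Under it, the library not analysed here had 3.30 FPKM for JAG2, 9.11 for JAG1, 3.82 for DLL1, 0.430 for NOTCH3, 7.10 for NOTCH1, 12.6 for NOTCH2, 45.3 for LFNG, 8.62 for NRARP and 0.250 for HEY1. Those values lie on the Cal27-shGRK2 side of every Cal27 library. HES1 would be at 19.2 FPKM, inside the Cal27 range of 19.1 to 20.5 FPKM. With this computed library added, which was decided on after the data had been seen, the 9 tested genes kept their calls (JAG2 -1.78, NOTCH3 -1.16, NOTCH2 0.39).

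**Figure D4:**
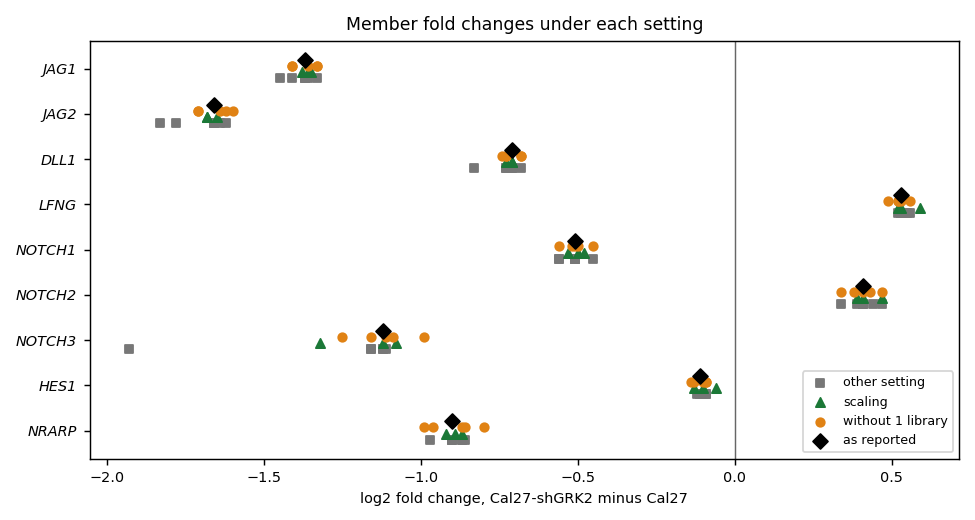
log2 fold changes (Cal27-shGRK2 minus Cal27) of the 9 tested genes as reported (diamonds) and under other scalings (triangles), without 1 library (circles) and under other settings (squares). Every symbol of a gene lies on the same side of 0, and the widest scatter is that of NOTCH3, which reached -1.93 with a pseudocount of 0.1.

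Few of these genes shared exon bases with another gene. DLL1 overlaps FAM120B, which lies on the other strand and shares 0 exon bases with it, and FAM120B had a log2 fold change of -0.06 (limma adjusted p = 0.58). JAG2 shares 469 exon bases, 7.33% of its own, with the noncoding gene AL512356.1 on the same strand. AL512356.1 was listed at 0 in both Cal27-shGRK2 libraries and in Cal27 replicate 0, and at 0.865 and 0.603 FPKM in Cal27 replicates 1 and 2. Its part in the JAG2 values was not tested. JAG1 shares 79 exon bases, 0.85% of its own, with AL050403.2 on the other strand, which was not analysed here.

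Most other pathway genes did not pass the test. Of 62 other pathway genes in 7 lists, 54 were in the table and 51 were tested. In Cal27-shGRK2 10 were higher and 7 lower, that is 33.3% of them, near the 29.6% of all genes, and 34 did not pass. Their median log2 fold change was 0.05. The share that passed was 28.6% of the 7 glycosyltransferases, 33.3% of the 3 ligand ubiquitin ligases and 22.2% of the 9 receptor proteases. It was 25.0% of the 12 nuclear genes, 11.1% of the 9 turnover genes and 66.7% of the 9 genes in the target list. After rescaling to a common total, 17 of the 51 other pathway genes were higher and 6 lower, that is 23 past the threshold. Of all 13377 genes tested, 4362 passed there, 2850 higher and 1512 lower, so both shares depend on the scaling. DLL3, DLL4, DLK1, MAML3, DTX1, HES5, HEY2 and HEYL were not analysed here, and NOTCH4, NEURL1 and HES7 lay under the filter.

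**Figure D5:**
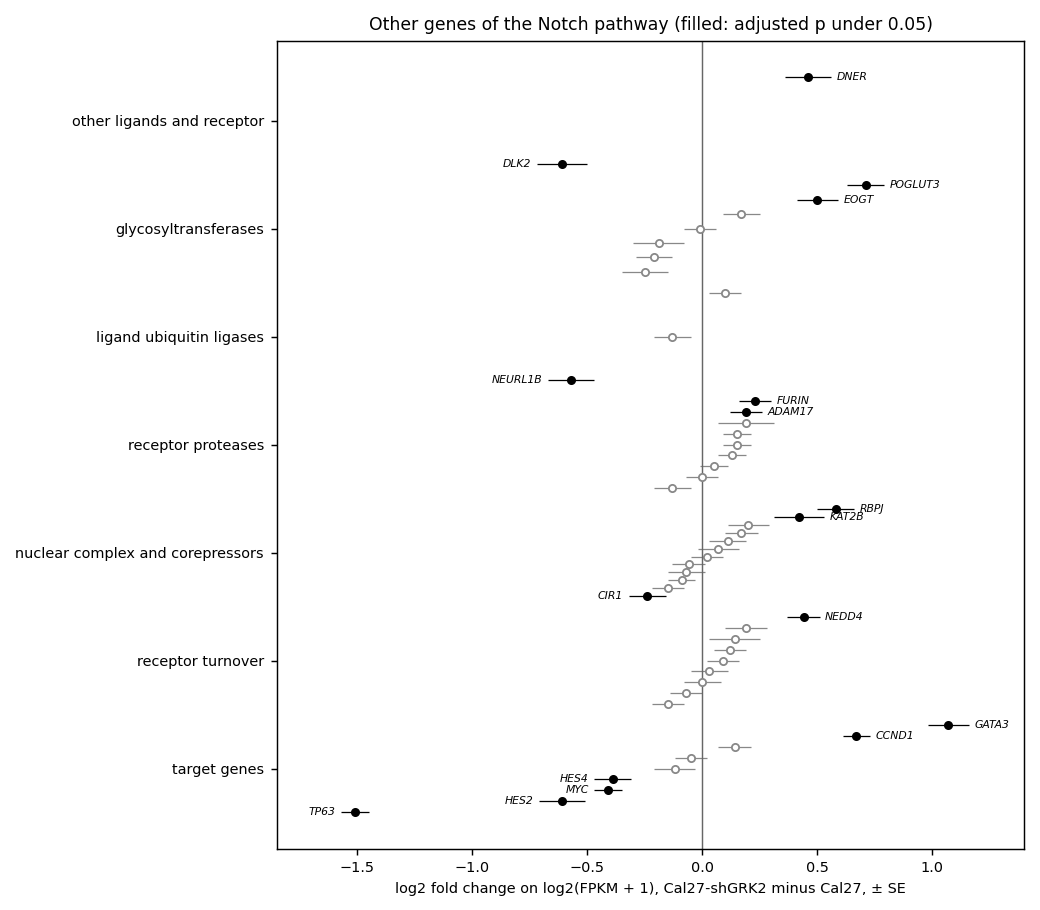
log2 fold changes with SE (Cal27-shGRK2 minus Cal27) of the 51 other tested pathway genes, grouped by list, with filled points and names for the 17 past an adjusted p of 0.05. Most points of the protease, nuclear and turnover lists lie near 0, while TP63 at -1.51 and GATA3 at 1.07 lie farthest out.

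Further ligand-like genes and receptor-modifying enzymes included calls in both directions. DNER, an atypical Notch ligand described in neural cells, had 4.28 and 4.17 FPKM in Cal27-shGRK2, against 2.65, 3.13 and 2.65 FPKM in Cal27 (log2 fold change 0.46 ± 0.10, SE, limma adjusted p = 0.0019). DLK2, a noncanonical Delta-like protein, had 0.639 and 0.553 FPKM in Cal27-shGRK2, against 1.52, 1.26 and 1.53 FPKM in Cal27, and fell by 0.61. Like NOTCH3, it passed the filter only through Cal27, and the authors' own comparison did not mark it as significant (q = 0.1). Thus 1 rose and 1 fell of the 2 tested. Of 7 other glycosyltransferases 2 rose and 5 did not pass. POGLUT3 (listed as KDELC2), an O-glucosyltransferase, had 8.76 and 9.33 FPKM in Cal27-shGRK2, against 5.10, 5.37 and 5.00 FPKM in Cal27 (log2 fold change 0.71 ± 0.08, limma adjusted p = 7e-06). EOGT, which adds O-GlcNAc to extracellular repeats, had 5.15 and 5.07 FPKM in Cal27-shGRK2, against 3.25, 3.14 and 3.62 FPKM in Cal27, and rose by 0.50. The authors' own comparison did not mark EOGT as significant (log2 fold change 0.48, q = 0.36). In the library computed from the authors' condition value, EOGT would be at 3.79 FPKM, close to Cal27. POFUT1, which adds the O-fucose that fringe enzymes extend, had a log2 fold change of -0.01 (limma adjusted p = 0.96).

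Of 3 tested ubiquitin ligases that act on ligands, 1 fell. NEURL1B had 1.70 and 1.87 FPKM in Cal27-shGRK2, against 3.10, 3.37 and 2.99 FPKM in Cal27, and fell by 0.57 ± 0.10 (SE, limma adjusted p = 0.00032). MIB1, the main such ligase in mammals, had 0.10 (limma adjusted p = 0.33). Among 9 receptor proteases 2 were higher and 7 did not pass. ADAM10, the main receptor-cutting metalloprotease, had 65.8 and 68.5 FPKM in Cal27-shGRK2 and 58.1 to 61.6 FPKM in Cal27 (log2 fold change 0.15, limma adjusted p = 0.071). FURIN, which cuts receptors on their way to the surface, was higher by 0.23 (adjusted p = 0.031). That call did not hold when Cal27 replicate 0 or 2 was left out (0.093 and 0.073), nor without the shared Cal27-shGRK2 library or replicate 2 (0.068 and 0.24). ADAM17 was higher by 0.19 (adjusted p = 0.047), a call lost without Cal27 replicate 0, 1 or 2 (0.082, 0.079 and 0.073) or without either Cal27-shGRK2 library (0.21 and 0.13).

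In the nucleus RBPJ, the DNA-binding partner of all Notch receptors, had 14.7 and 16.2 FPKM in Cal27-shGRK2, against 9.24, 10.8 and 9.99 FPKM in Cal27. It rose by 0.58 ± 0.08 (SE, limma adjusted p = 6.1e-05), opposite in sign to NRARP. Of 12 tested nuclear genes, 2 were higher, 1 was lower and 9 did not pass, among them the coactivator MAML1 (log2 fold change 0.11). KAT2B, an acetyltransferase that averaged at least 1 FPKM only in Cal27-shGRK2, was higher by 0.42 (adjusted p = 0.0098), but not past the threshold without the shared Cal27-shGRK2 library (0.080) or without replicate 2 (0.060). CIR1, a corepressor that binds RBPJ, was lower by 0.24 (adjusted p = 0.033), which did not hold when Cal27 replicate 0 or 2 was left out (0.070 and 0.13), without either Cal27-shGRK2 library (0.14 in each case) and under rescaling to a common total (0.11). Of 9 genes of receptor turnover 1 rose. This was the ubiquitin ligase NEDD4, with 26.2 and 30.0 FPKM in Cal27-shGRK2, against 19.9, 19.9 and 21.7 FPKM in Cal27 (log2 fold change 0.44 ± 0.07, limma adjusted p = 0.00036). NUMB, an adaptor that antagonises Notch, had 0.12 (limma adjusted p = 0.26).

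The target list joins HES and HEY family genes with others reported elsewhere as Notch targets. Of its 9 tested genes, 4 were lower, 2 higher and 3 did not pass, beside 14.6% lower and 15.0% higher over all genes tested. The list gives neither whether Notch induces each family member nor the direction in which it moves each gene. These counts therefore do not measure Notch output. The squamous lineage factor TP63, which is also 1 of the 5 lower squamous markers above, had 10.5 FPKM in both Cal27-shGRK2 libraries, against 32.0, 32.1 and 31.4 FPKM in Cal27, and fell by 1.51 ± 0.06 (SE, limma adjusted p = 1.4e-10). HES2, of the same family as HES1, had 1.72 and 2.02 FPKM in Cal27-shGRK2, against 3.52, 3.03 and 3.60 FPKM in Cal27, and fell by 0.61. The growth regulator MYC fell by 0.41. HES4, named after its value was seen because the rule took 3 genes per direction, was lower by 0.39 (adjusted p = 0.0017), and lost its call without the shared Cal27-shGRK2 library (0.051). GATA3, a luminal lineage factor, had 6.73 and 7.29 FPKM in Cal27-shGRK2, against 2.52, 3.08 and 2.88 FPKM in Cal27, and rose by 1.07. The cyclin CCND1 had 273.1 and 273.2 FPKM in Cal27-shGRK2, against 165.6, 183.7 and 164.9 FPKM in Cal27, and rose by 0.67. HES6 had a log2 fold change of -0.12 (limma adjusted p = 0.32).

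Few markers of other cell types were analysed here. Of 6 endothelial markers only CDH5 was analysed here, at 7.01 and 6.80 FPKM in Cal27-shGRK2 against 3.50 to 3.97 FPKM in Cal27, a log2 fold change of 0.76 (limma adjusted p = 7.9e-06). Of the 4 fibroblast and mural markers in the table, COL1A1 passed the filter (log2 fold change -0.23, limma adjusted p = 0.078), and their summed FPKM was 4.46 and 4.38 in Cal27-shGRK2 and 4.35 to 4.71 in Cal27, mostly COL1A1. The other 3 lay under the filter. Of these, PDGFRB had 0.617 and 0.599 FPKM in Cal27-shGRK2, against 0.1545, 0.2925 and 0.0998 FPKM in Cal27. LUM had 0.378 and 0.412 FPKM in Cal27-shGRK2, against 0.166 to 0.370 FPKM in Cal27, so its groups nearly touch. Neither gene overlapped between the groups. The share without overlap was 53.3% of all genes tested, and it was not computed for genes under the filter. Of the blood cell markers only CD14 was analysed here, and it lay under the filter. The part of cells other than Cal27 in the Notch values was not tested. Over the 5 libraries, the genes of at least 5 FPKM whose centred log2(FPKM + 1) values lay nearest to those of JAG2 were LY6D, KRT5 and GRK2 (listed as ADRBK1), at root mean square distances of 0.053, 0.068 and 0.070 on the log2 scale. With 2 groups, many genes of a like fold change come near, and the likeness is a description only.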

How the data were processed

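Per the submitters' processing notes, the tools were Cuffdiff 2.2.1, TopHat2 2.1.0 and Bowtie2 2.2.6, and the build was hg38, with no role or strand setting stated. For the annotation, the sources used here give nothing. The authors deposited FPKM per library, in which 0 is written as 0.0001, and FPKM per condition. Per the file headers, the deposited table further gives q-values, p-values, the log2 fold change and a test score from the authors' own comparison.

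From these values log2(FPKM + 1) was computed. Genes averaging 1 FPKM or more in the 5 distinct libraries entered a two-sided limma test (version 3.58.1, R 4.3.3) with robust, trended moderation and 3 residual degrees of freedom. Adjusted p-values (Benjamini-Hochberg, 13377 genes) under 0.05 counted as passing. The script was run on simulated data with fewer changed genes than were called here. That run does not measure the error of these calls. Ratios within a library were compared by exact permutation. Positions come from GENCODE version 29 and promoters from RefSeq.

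The genes and pathway lists were chosen with earlier results of these data known. All 10 Notch genes are named, with GRK2, up to 3 called genes per direction of each list and the 3 genes nearest to JAG2. Other genes named as not past the threshold were chosen for their role after their values were seen. Alternatives changed the pseudocount, the filter, the scaling, the limma settings, a replicate block and the libraries used.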

Additional observations from a re-analysis of the deposited data

How the results depend on the processing

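The 9 tested Notch genes kept their direction and their side of the threshold in all 134 recomputed values, 15 alternatives for each gene but NOTCH3, which could not be tested at a mean of at least 5 FPKM. Without single libraries JAG2 ranged over -1.71 to -1.60, JAG1 over -1.41 to -1.33, NOTCH3 over -1.25 to -0.99, NRARP over -0.99 to -0.80, DLL1 over -0.74 to -0.68, NOTCH1 over -0.56 to -0.45, HES1 over -0.14 to -0.09, NOTCH2 over 0.34 to 0.47 and LFNG over 0.49 to 0.56. The 4 ratios kept their sign in every alternative, with NOTCH2 over NOTCH3 lowest, at 1.52, when 1 FPKM was added to each term. The count of Notch genes past the threshold was 7 to 9. Over all genes it was 2600 to 4028 without single libraries, the lowest being with the shared Cal27-shGRK2 library left out. For the other pathway genes it was 13 to 20 without single libraries, and 11 at a mean of at least 5 FPKM, where 38 rather than 51 were tested. Where a group is left with 1 library, that library is assumed to vary like the other group.

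Same-numbered libraries shared only a number. Their deviations correlated at 0.08 and 0.02, or -0.07 with the shared library taken as number 1. With the replicate number as a block, 3960 genes passed with the shared library as number 0 and 3481 as number 1, against 3957 with no block, and the Notch genes kept their calls. Low levels limit NOTCH3 and HEY1, and unknown depth leaves their counting error unmeasured.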
